A study of Mus musculus with 8 samples.

Results

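The 10 genes described here encode enzymes that make serine, split it to glycine and carry the released carbon on folate: Phgdh, Psat1, Psph, Shmt1, Shmt2, Mthfd1, Mthfd1l, Mthfd2, Gcsh and Sardh. Each was read from the transcript cluster (the probe set of a gene) that carries its symbol and no other, 1 cluster per gene, and together they are 10 of the 17501 genes named in this way. Mthfd1l, Gcsh and Sardh were picked because their values differed consistently between the genotypes, so their genotype differences are given as a description, with no test. The other 7 were taken for their place in the pathway, with earlier results of these data known. Total RNA of mouse embryonic fibroblasts, connective tissue cells cultured from embryos, was measured on 8 Affymetrix arrays. The groups were Smurf2-/- and wild-type cells, 4 arrays each, with Smurf2 lost from the embryo on and no treatment of any group. Each genotype was sampled in the mixed BL background (129SVJ and NIH Black Swiss mice) and in C57B6, and within each background 1 array was made at late passage (33 in mixed BL, 28 in C57B6) and 1 at early passage (6 in mixed BL, 7 in C57B6). The Smurf2-/- mixed BL cells were pooled from 3 embryos, the wild-type mixed BL cells from 2, and each C57B6 culture came from 1 embryo. The stated embryo age differs between the sample descriptions (E14.5) and the growth protocol (day 11.5). Whether a late array is a later passage of its early partner's culture is not stated, so the p-values describe the spread among these 8 arrays alone, and that spread may be technical. Fewer cells of a kind and less RNA per cell cannot be told apart in such bulk samples.

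Serine is built from the glycolytic intermediate 3-phosphoglycerate by Phgdh, Psat1 and Psph in turn. Serine hydroxymethyltransferase, Shmt1 in the cytosol and Shmt2 in mitochondria, moves a carbon from serine to tetrahydrofolate and leaves glycine; Mthfd2 and Mthfd1l then oxidise that carbon in mitochondria and release it as formate, which Mthfd1 puts back on folate in the cytosol for purine and thymidylate synthesis. Gcsh is the lipoyl carrier protein of the glycine cleavage system, which draws a folate carbon from glycine, and Sardh, sarcosine dehydrogenase, makes glycine from sarcosine. Cultured fibroblasts use this pathway to supply nucleotide synthesis, and several of its genes are known targets of the transcription factor Atf4, which responds to amino acid shortage.

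Phgdh, Psat1, Psph, Mthfd2 and Shmt2, the enzymes of serine synthesis and of the first mitochondrial steps, are the 5 genes with the same highest and the same lowest array. To show what lies before genes with that shared pattern, the 100 bases before their RefSeq start sites are printed, 5′ to 3′, with CCAAT boxes of either strand in capitals. All are from assembly GRCm38.p6 and lie on the minus strand: Phgdh at chr3:98339970-98340069, Psat1 at chr19:15925060-15925159, Psph at chr5:129787254-129787353, Mthfd2 at chr6:83317605-83317704 and Shmt2 at chr10:127522445-127522544.
Phgdh: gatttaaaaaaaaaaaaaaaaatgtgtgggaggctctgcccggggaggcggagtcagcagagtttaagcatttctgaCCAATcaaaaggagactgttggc
Psat1: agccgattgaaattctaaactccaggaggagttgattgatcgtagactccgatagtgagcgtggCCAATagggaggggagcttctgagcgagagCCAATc
Psph: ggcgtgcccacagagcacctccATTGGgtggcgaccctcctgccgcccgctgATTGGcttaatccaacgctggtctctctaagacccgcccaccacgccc
Mthfd2: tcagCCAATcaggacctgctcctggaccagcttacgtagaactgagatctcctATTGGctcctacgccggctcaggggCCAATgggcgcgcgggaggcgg
Shmt2: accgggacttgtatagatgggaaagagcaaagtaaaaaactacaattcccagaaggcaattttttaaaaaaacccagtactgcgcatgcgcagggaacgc
The CCAAT box (letters CCAAT, read on both strands) was found in the promoter window, from 250 bases before to 50 after the start, of 7 of the 10 genes, and in 37.4% of all 32851 RefSeq promoter windows. Mthfd2 had 3 CCAAT boxes in the printed stretch, Psph and Psat1 2 each and Phgdh 1, whereas Shmt2 had none. The second RefSeq window of Psat1 held none in the 100 bases before its start. The GC box (GGGCGG, both strands) was found in 6 of the 10, against 35.7% of all windows. The core of the Atf4-bound C/EBP-ATF element (TGATGNAA) was in no member's window and in 3.97% of all windows, and the E-box CACGTG, likewise in none, was in 7.15% of all windows. The cAMP response element TGACGTCA and the E2F sites TTTGGCGC and TTTCCCGC were in none either, against 1.79%, 0.514% and 1.07% of all windows. These matches describe the letters only.

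Every deposited value is read here as log2, relative to the median of its own cluster across the arrays. Levels of different genes can therefore not be set against each other, nor can the absence of any cell type marker be read. Array medians lay between -0.015 and 0.047. Smurf2 stood at -1.19, -0.70, -1.21 and -0.43 on the Smurf2-/- arrays (late and early mixed BL, late and early C57B6), against 0.43, 0.96, 0.64 and 0.71 on the wild-type arrays in the same order, with no overlap (two-sided exact permutation p = 0.0286, the smallest that 4 arrays against 4 allow). The sex-linked genes separate the same 4 arrays from the same 4: Xist lay between -2.07 and -1.53 in Smurf2-/- and between 1.53 and 3.20 in wild-type, while the Y-linked gene Uty lay between 0.99 and 1.67 in Smurf2-/- and between -1.07 and -0.99 in wild-type. Genotype and embryo sex cannot be told apart in any genotype difference below.

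**Figure D1:**
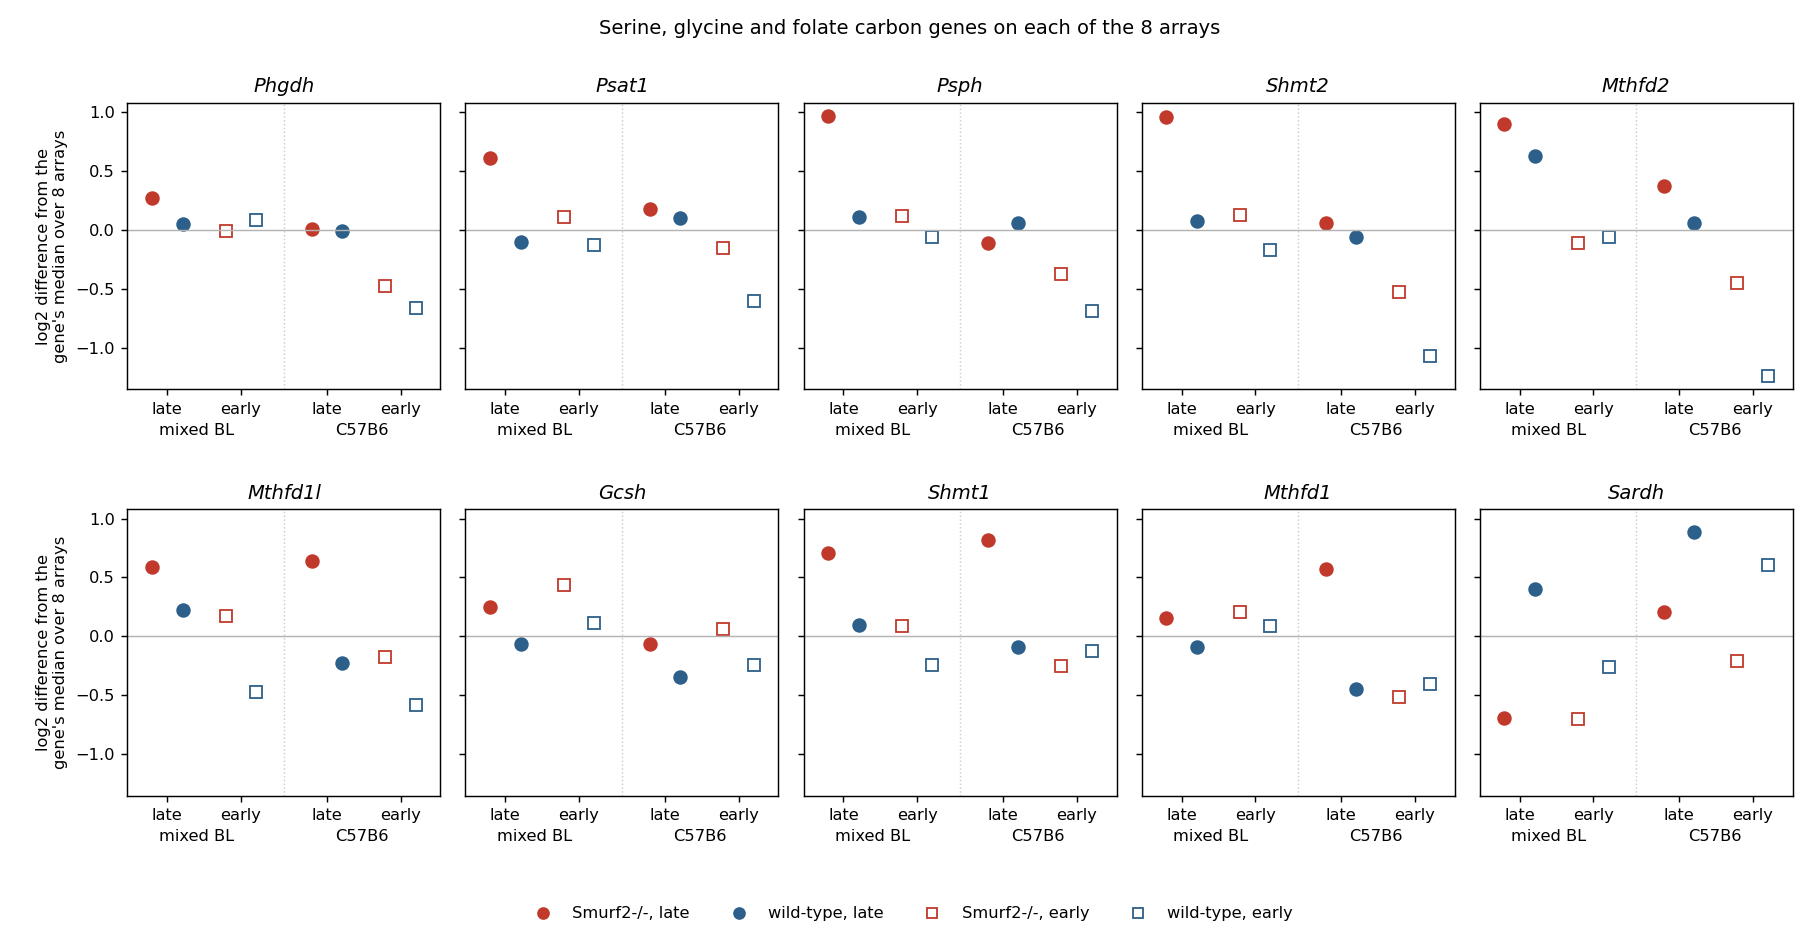
Value of each of the 10 genes on each array (y axis, log2 difference from the gene's median over the 8 arrays), with mixed BL left and C57B6 right, late passage as filled circles and early passage as open squares, Smurf2-/- in red and wild-type in blue. Early wild-type C57B6 is the lowest array in 6 panels, at -1.24 for Mthfd2, and late Smurf2-/- mixed BL the highest in 5.

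Late passage was set against early passage over both genotypes and backgrounds, the question being how long culture goes with the pathway's RNA. Late passage had the higher fitted value in 9 of the 10 genes, the exception being Gcsh, and the median log2 difference was 0.45 (0.028 over all genes, of which 57.5% lay above 0). None of the 10 passed the test (limma over 17501 genes, Benjamini-Hochberg threshold 0.05), which called 0.0171% of all genes; limma adjusted p ran between 0.104 and 0.649. At an unadjusted limma p under 0.05 there were 9 of the 10 and 17.3% of all genes; 8 of the 9 were higher at late passage, as were 6.95% of all genes, and Gcsh was lower. The 3 genes picked on genotype were picked in part for a small residual spread. These tests, those of passage within a genotype or background and those of background share that spread.

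Mthfd2, the mitochondrial methylene-tetrahydrofolate dehydrogenase, had the largest of these passage differences. Mthfd2 stood at 0.90, 0.63, 0.38 and 0.06 on the late arrays (Smurf2-/- and wild-type mixed BL, then Smurf2-/- and wild-type C57B6), against -0.11, -0.06, -0.45 and -1.24 on the early arrays in the same order. Every late array lay above every early one; among all genes 5.44% were separated in this direction, and Mthfd2 was the only one of the 10. In the opposite direction 4.59% of all genes and 0 of the 10 were separated. Its log2 difference was 0.96 ± 0.14 (SE, n = 4 against 4), or 1.94-fold, with a limma adjusted p of 0.104. The 4 late-minus-early differences were 1.01 and 0.69 in Smurf2-/- and wild-type mixed BL and 0.83 and 1.30 in Smurf2-/- and wild-type C57B6.

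Shmt2, which feeds Mthfd2 with its folate carbon in the mitochondrion, ran close to it. It stood at 0.96, 0.08, 0.06 and -0.06 on the late arrays and at 0.13, -0.17, -0.53 and -1.07 on the early arrays, in the order used for Mthfd2. The groups overlapped through the early Smurf2-/- mixed BL array, which lay above 3 late ones. The log2 difference was 0.67 ± 0.14 (SE, 1.59-fold, limma adjusted p = 0.130), above 0 in 4 of 4 pairs. Mthfd1l, the mitochondrial formyl-tetrahydrofolate synthetase that ends this branch, stood at 0.59, 0.23, 0.64 and -0.22 on the late arrays and at 0.17, -0.48, -0.17 and -0.58 on the early arrays. Late exceeded early in each of its 4 pairs, by 0.36 to 0.81, although the late wild-type C57B6 array lay below both early Smurf2-/- arrays. Its log2 difference was 0.57 ± 0.10 (SE, 1.49-fold, limma adjusted p = 0.113).

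The 3 genes of serine synthesis had fitted passage differences between 0.35 and 0.50. Phgdh, the first enzyme, stood at 0.27, 0.05, 0.01 and -0.01 on the late arrays and at -0.01, 0.08, -0.48 and -0.67 on the early arrays, again with Smurf2-/- and wild-type mixed BL before Smurf2-/- and wild-type C57B6. Only the C57B6 arrays of early passage were far from the others. A cluster that Phgdh shares with Gm6756 was left out here and is described under other observations. Psat1, the transaminase of the second step, stood at 0.61, -0.10, 0.18 and 0.10 on the late arrays and at 0.11, -0.13, -0.15 and -0.60 on the early arrays. Psph, the phosphatase that releases serine, stood at 0.97, 0.11, -0.11 and 0.06 late and at 0.12, -0.06, -0.37 and -0.69 early. In both the late Smurf2-/- mixed BL array was the highest and the early wild-type C57B6 array the lowest. Log2 differences were 0.35 ± 0.12 for Phgdh, 0.39 ± 0.12 for Psat1 and 0.50 ± 0.16 for Psph (SE), with limma adjusted p of 0.232, 0.214 and 0.216. Late passage was higher in 3 of 4 pairs for Phgdh and in 4 of 4 for Psat1 and Psph, so that 7 of the 10 genes were higher in all 4 pairs, against 15.1% of all genes.

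**Figure D2:**
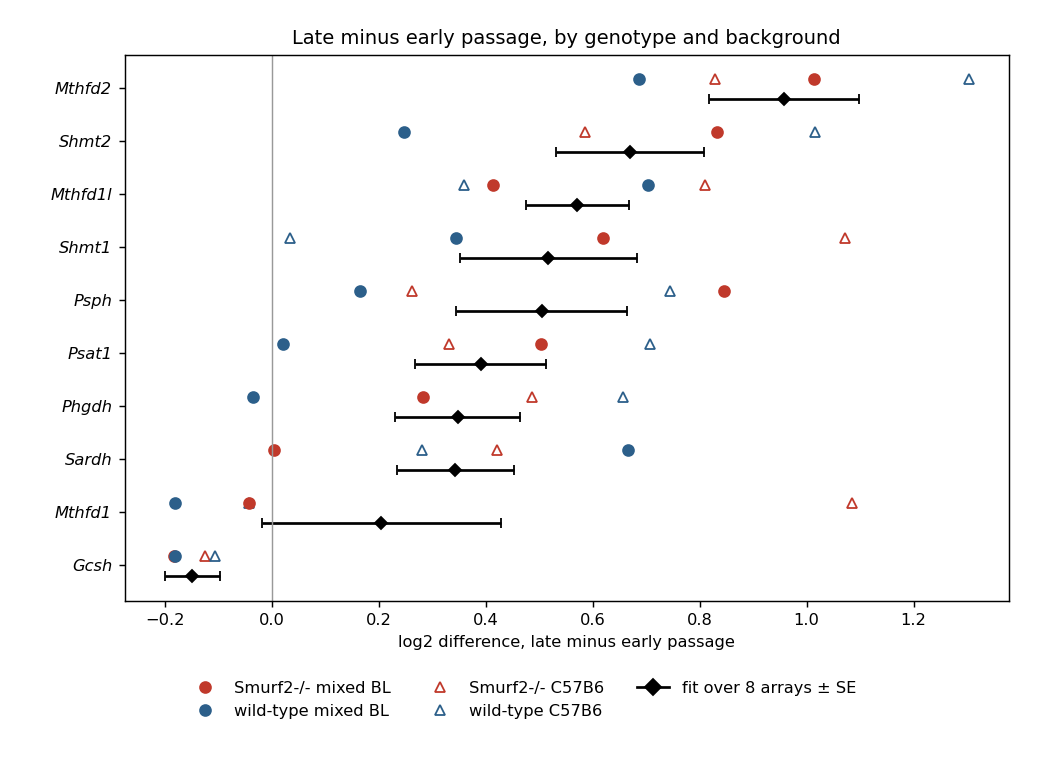
Late-minus-early log2 differences (x axis) of the 10 genes, with 1 coloured symbol per combination of genotype and background and, in black, the difference fitted over the 8 arrays with its SE. Mthfd2 lies furthest right at 0.96, Gcsh is the one gene below 0, and the value for Mthfd1 rests on its Smurf2-/- C57B6 pair at 1.08.

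Shmt1, the cytosolic serine hydroxymethyltransferase, stood at 0.71, 0.10, 0.82 and -0.09 late and at 0.09, -0.25, -0.25 and -0.125 early, in the order used above, with both late Smurf2-/- arrays above the other 6. Its passage difference was 0.52 ± 0.17 (SE, limma adjusted p = 0.218). Mthfd1, the cytosolic trifunctional enzyme, stood at 0.16, -0.09, 0.57 and -0.44 late and at 0.20, 0.09, -0.51 and -0.40 early. Only Smurf2-/- C57B6 had a late value above its early one, by 1.08, while the other 3 pairs lay between -0.18 and -0.04. The fitted Mthfd1 difference of 0.20 ± 0.22 (SE, limma adjusted p = 0.649) was -0.05 without the late and 0.02 without the early Smurf2-/- C57B6 array, and 0.33 without the early wild-type mixed BL array. Gcsh differed by -0.15 ± 0.05 (SE, limma adjusted p = 0.240), with pairs from -0.18 to -0.11, and Sardh by 0.34 ± 0.11 (SE, limma adjusted p = 0.219), with pairs from 0.0049 in Smurf2-/- mixed BL to 0.67 in wild-type mixed BL.

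Passage was also compared within each genotype. In Smurf2-/- cells the median passage difference of the 10 genes was 0.54, with 9 above 0, and in wild-type cells it was 0.41, with 8 above 0. Over all genes the medians were 0.037 and 0.015, with 57.8% and 53.9% above 0. Limma called 0 of the 10, and 0.00% of all genes, within either genotype, although 4 of the 10 had an unadjusted limma p under 0.05 in Smurf2-/- and 4 in wild-type cells, against 14.8% and 7.25% of all genes. The picked gene Mthfd1l was among the 4 in both genotypes, and the picked gene Sardh among the 4 in wild-type cells. Mthfd2 differed by 0.92 ± 0.22 in Smurf2-/- and by 1.00 ± 0.22 in wild-type cells (SE), and Shmt1 by 0.845 ± 0.15 in Smurf2-/- and by 0.19 ± 0.15 in wild-type cells. For Shmt1 the difference between the genotypes in the passage effect, 0.66 ± 0.21 (SE), had a limma adjusted p of 0.846, and that of Mthfd1 was 0.63 ± 0.40. This interaction called 0 of the 7 genes not picked on genotype and 0.00% of all genes, with 1 of the 7 and 5.35% of all genes at an unadjusted limma p under 0.05.

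Proliferation genes and markers of other cell types were read on the same arrays, and their part in the passage differences was not tested. Proliferation genes lay above 0 in 20 of 21 for passage, with a median of 0.43; their medians were 0.52 and 1.09 on the late Smurf2-/- arrays of mixed BL and C57B6 and between -0.21 and 0.03 on the other 6. On the late Smurf2-/- C57B6 array the 10 genes stood at 0.82 (Shmt1), 0.64 (Mthfd1l), 0.57 (Mthfd1), 0.38 (Mthfd2), 0.21 (Sardh), 0.18 (Psat1), 0.06 (Shmt2), 0.01 (Phgdh), -0.06 (Gcsh) and -0.11 (Psph). Fibroblast markers lay below 0 in 12 of 12, median -0.30, among them Thy1, a surface glycoprotein, at -2.07 ± 0.83 (SE). Macrophage and leukocyte markers lay below 0 in 5 of 7, median -0.03, with the lysozyme gene Lyz2 at -1.72 ± 0.52. Epithelial markers lay above 0 in 6 of 6, median 0.14, and liver cell markers in 5 of 5, median 0.09. Endothelial markers did so in 3 of 5, median 0.01, and neural markers in 2 of 5, median -0.16. None of these marker genes passed the test.

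The Smurf2-/- arrays were then set against the wild-type arrays. In the 7 genes not picked for it the fitted genotype difference was above 0 in all 7, with a median of 0.33 (0.015 over all genes, of which 55.5% lay above 0). None of the 7 passed the test, and limma adjusted p ran between 0.651 and 0.848. The test called 0.0286% of all genes, namely Smurf2 and the 4 sex-linked genes Xist, Uty, Kdm5d and Eif2s3y. At an unadjusted limma p under 0.05 there were 3 of the 7 and 7.55% of all genes. All 3 were higher in Smurf2-/-, as were 3.14% of all genes. Psat1 and Shmt2 were higher in Smurf2-/- in 4 of 4 pairs, as were 11.0% of all genes, and the other 5 in 3 of 4. Since these 7 too were chosen with earlier results of these data known, their shared direction is no independent evidence.

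Shmt2 stood at 0.96, 0.13, 0.06 and -0.53 on the Smurf2-/- arrays (late and early mixed BL, then late and early C57B6), against 0.08, -0.17, -0.06 and -1.07 on the wild-type arrays in the same order, a log2 difference of 0.46 ± 0.14 (SE, n = 4 against 4, limma adjusted p = 0.651). The genotypes overlapped widely, and the pairs differed by 0.88, 0.30, 0.11 and 0.54. Psat1 differed by 0.37 ± 0.12 (SE), with pairs of 0.72 and 0.24 in late and early mixed BL and 0.08 and 0.45 in late and early C57B6. Shmt1 differed by 0.44 ± 0.17 (SE), with pairs of 0.61, 0.34, 0.91 and -0.13 in that order. Its late pairs were thus the larger ones, and within late passage it differed by 0.76 ± 0.15 (SE, limma adjusted p = 0.161). Mthfd2, Mthfd1, Psph and Phgdh differed by 0.33 ± 0.14, 0.32 ± 0.22, 0.30 ± 0.16 and 0.09 ± 0.12 (SE), each with 1 pair of the opposite sign. With 1 array left out the Mthfd1 difference was 0.06 (without late Smurf2-/- C57B6) or 0.50 (without early Smurf2-/- C57B6), and that of Mthfd2 was 0.19 without early wild-type C57B6. The Psph difference was 0.15 without late Smurf2-/- mixed BL and 0.16 without its wild-type partner. For Phgdh, at 0.09, values between -0.0055 (without late mixed BL wild-type) and 0.19 (without early mixed BL wild-type) were obtained, with 0.0046 and 0.16 without early and late C57B6 wild-type and 0.05 without late C57B6 Smurf2-/-.

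Within late passage the 7 genes had a median genotype difference of 0.40 and within early passage one of 0.25. All 7 lay above 0 in both, against 56.2% of all genes within late and 50.7% within early passage. Limma called 0 of the 7 in either, and 0.00% of all genes within late and 0.00571% within early passage; at an unadjusted limma p under 0.05 there was 1 of the 7 (13.4% of all genes) within late and 0 (1.09%) within early passage. Mthfd1 differed by 0.63 ± 0.28 within late and by 0.0009 ± 0.28 within early passage (SE).

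Markers of other cell types were read for genotype too, and their part in these differences was not tested. Neural markers lay above 0 in 5 of 5, with a median of 0.25; their medians per array ran between -0.006 and 0.647 in Smurf2-/- and between -0.352 and -0.009 in wild-type. Sox2 and Gfap, genes of neural stem cells and astrocytes, were higher in Smurf2-/- by 0.44 ± 0.18 and 0.17 ± 0.07 (SE, limma adjusted p = 0.651 for both). The genotypes did not overlap in either gene, and 1.14% of all genes were higher in Smurf2-/- without overlap. The nearest arrays lay at 0.0026 against -0.0026 for Sox2 and at 0.0088 against -0.0088 for Gfap. Sox2 stood at 1.02 on the early Smurf2-/- C57B6 array. Macrophage and leukocyte markers lay below 0 in 6 of 7, median -0.09, with medians per array between -0.052 and 0.066 in Smurf2-/- and between -0.044 and 0.187 in wild-type. Fibroblast markers lay above 0 in 6 of 12 (median -0.01), and endothelial, epithelial and liver cell markers had medians of 0.04, 0.06 and -0.02.

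Mthfd1l, Gcsh and Sardh were chosen for their genotype differences, which are described here without a test. Mthfd1l stood at 0.59, 0.17, 0.64 and -0.17 on the Smurf2-/- arrays (late and early mixed BL, then late and early C57B6), against 0.23, -0.48, -0.22 and -0.58 on the wild-type arrays. Each Smurf2-/- array was above its wild-type partner, by 0.36 to 0.86, yet the early Smurf2-/- arrays lay below the late wild-type mixed BL array. Gcsh stood at 0.25, 0.43, -0.06 and 0.06 in Smurf2-/- and at -0.06, 0.12, -0.35 and -0.24 in wild-type. Its 4 pairs differed by nearly the same amount, 0.32, 0.32, 0.28 and 0.30, and its 4 background pairs by 0.28 to 0.37. Sardh stood at -0.69, -0.70, 0.21 and -0.21 in Smurf2-/- and at 0.40, -0.26, 0.88 and 0.60 in wild-type. It was the 1 gene of the 10 with lower values in Smurf2-/-, with pairs of -1.10, -0.44, -0.67 and -0.81, and the genotypes overlapped because the wild-type early mixed BL array lay below both Smurf2-/- C57B6 arrays. Of all genes, 11.0% were higher and 9.35% lower in Smurf2-/- in 4 of 4 pairs, from which nothing is read for genes picked on this contrast. The fitted differences were 0.57 ± 0.10, 0.31 ± 0.05 and -0.75 ± 0.11 (SE) for Mthfd1l, Gcsh and Sardh.

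**Figure D3:**
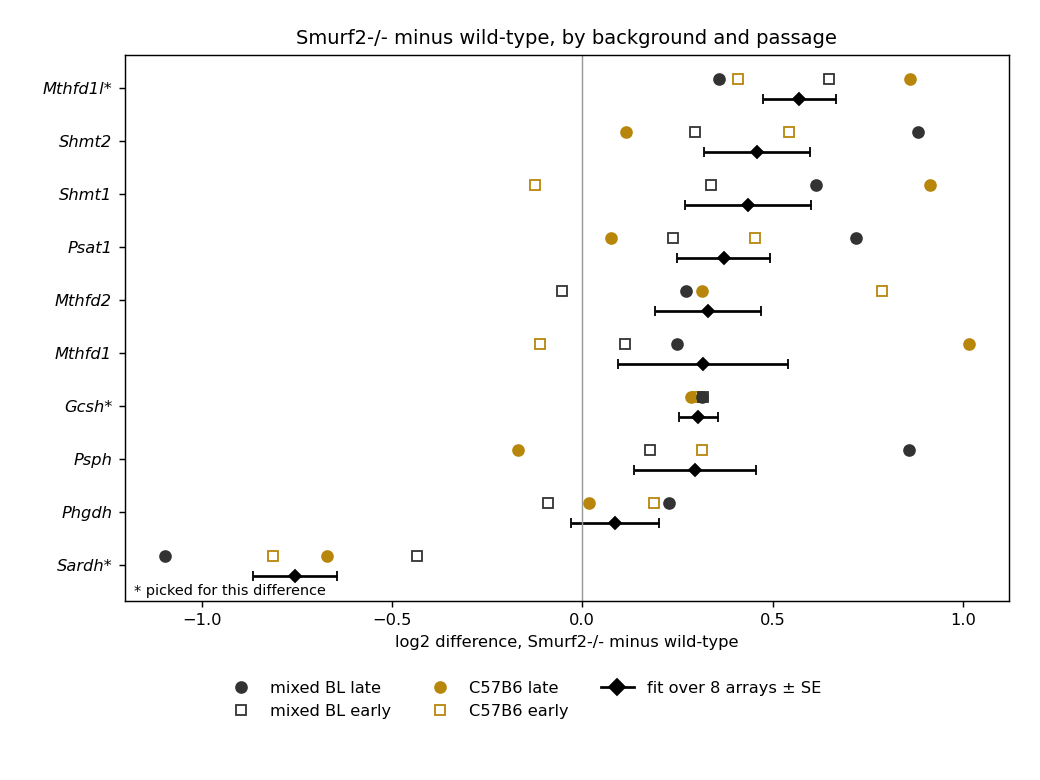
Smurf2-/- minus wild-type log2 differences (x axis) of the 10 genes, with mixed BL pairs in black and C57B6 pairs in gold, late passage filled and early open, and the difference fitted over the 8 arrays with its SE below them. The 3 starred genes were picked for this difference; the Gcsh pairs fall between 0.28 and 0.32, while those of Mthfd1 spread from -0.11 to 1.02.

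The mixed BL background was compared with C57B6. Background cannot be told apart from passage number (33 and 6 in mixed BL, 28 and 7 in C57B6). Nor can it be told apart from the number of embryos per culture (3 or 2 in mixed BL, 1 in C57B6). Both limits hold for every background difference below. Mixed BL had the higher fitted value in 9 of the 10 genes (51.7% of all genes lay above 0), with a median of 0.31 against 0.005 over all genes, and Sardh was the exception. None passed the test, which called 0.0800% of all genes, with limma adjusted p between 0.114 and 0.927; 6 of the 10 and 13.5% of all genes had an unadjusted limma p under 0.05, 5 of them higher in mixed BL, as were 6.85% of all genes. Sardh stood at -0.69, 0.40, -0.70 and -0.26 on the mixed BL arrays (late Smurf2-/- and wild-type, early Smurf2-/- and wild-type), against 0.21, 0.88, -0.21 and 0.60 on the C57B6 arrays. It was lower in mixed BL in each pair, by 0.48 to 0.90 in size, with a log2 difference of -0.68 ± 0.11 (SE, limma adjusted p = 0.121). Gcsh differed by 0.33 ± 0.05 (SE, limma adjusted p = 0.114). Sardh and Gcsh, with the lowest p of the 10 here, are among the genes picked in part for a small residual spread in this model. Mthfd2 differed by 0.65 ± 0.14 and Shmt2 by 0.65 ± 0.14 (SE, limma adjusted p = 0.180 for both), Psph by 0.56 ± 0.16 and Phgdh by 0.39 ± 0.12 (SE). These 4 genes and Gcsh, 5 in all, were higher in mixed BL in 4 of 4 pairs, as were 10.4% of all genes. Sardh was the 1 gene lower in 4 of 4, as were 9.94% of all genes, and Shmt1, at 0.07 ± 0.17 (SE), was higher in 2 of 4, with values between -0.0747 (without early Smurf2-/- C57B6) and 0.21 (without early wild-type C57B6). The backgrounds overlapped in all 10, while 3.02% of all genes were higher and 2.89% lower in mixed BL without overlap.

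Other lists lay higher in mixed BL as well, and their part in the background differences was not tested. Purine synthesis genes lay above 0 in 11 of 11, median 0.28, serine-using enzymes in 8 of 9, median 0.22, and amino acid response genes in 15 of 19, median 0.24, whereas proliferation genes did so in 7 of 21, median -0.09. Fibroblast markers lay above 0 in 7 of 12, median 0.17, and macrophage and leukocyte markers in 5 of 7, median 0.05. Lyz2 stood at 2.07 and 3.20 on the early Smurf2-/- and wild-type mixed BL arrays, against 0.19 and 0.13 on the early C57B6 arrays. On the 4 late arrays it lay between -0.49 and -0.13. Cd68 and Cd14 of the same list went the other way, with means of -0.17 and -0.06 in mixed BL against 0.14 and 0.09 in C57B6. On the early Smurf2-/- and wild-type arrays Cd68 stood at 0.12 and 0.36 in mixed BL, against 0.38 and 0.87 in C57B6. Endothelial, epithelial, neural and liver cell markers had medians of 0.03, -0.03, 0.01 and 0.04, and none of the genes in these lists passed the test.

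Whether the passage or the genotype difference itself depended on the background was asked after these values had been seen. The passage difference of Phgdh was 0.12 ± 0.11 in mixed BL and 0.57 ± 0.11 in C57B6 (SE), a difference of -0.45 ± 0.16 (SE) with a limma adjusted p of 0.5. The cluster shared with Gm6756, left out of this value, was higher late than early in mixed BL too. It stood there at 0.39 late and -0.04 early in Smurf2-/-, and at 0.25 late and -0.14 early in wild-type. The small mixed BL difference thus holds for the cluster of Phgdh alone. Within mixed BL limma called 0 of the 10 for passage and 0.486% of all genes, and within C57B6 0 of the 10 and 0.00%; at an unadjusted p under 0.05 there were 3 of the 10 (16.4% of all genes) and 5 of the 10 (10.8%). Phgdh was the 1 gene of the 10 with an unadjusted limma p under 0.05 for passage by background, against 9.19% of all genes, and limma called 0 of the 10 and 0.00% of all genes there. For genotype by background limma likewise called 0 of 7 and 0.00%, with 0 of 7 and 3.18% at an unadjusted p under 0.05.

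The arrays at the ends of the range were mostly the same ones. Of the 7 genes not picked on genotype, early wild-type C57B6 was the lowest of the 8 arrays for 5, against 17.2% of all genes, and late Smurf2-/- mixed BL the highest for 5, against 11.4%. Of the picked genes Mthfd1l also had its lowest value on early wild-type C57B6, which its choice bears on. Both held for Phgdh, Psat1, Psph, Shmt2 and Mthfd2, and for 2.63% of all genes. As a measure of likeness the mean absolute difference between 2 genes' values over the 8 arrays was taken. The closest members were Psph and Shmt2 at 0.12, then Psat1 and Psph at 0.16 and Phgdh and Psph at 0.17, and Sardh was the farthest from Shmt2, at 0.75. Outside the 10, the genes nearest to Mthfd2 (range 2.14) were the amino acid transporter gene Slc7a5 at 0.21, the ornithine decarboxylase gene Odc1 at 0.21 and 9130401M01Rik at 0.22. Nearest to Shmt2 (range 2.03) were Cyrib at 0.16, the exosome nuclease gene Dis3 at 0.16 and Oxnad1 at 0.17, and nearest to Psph (range 1.66) were Gtpbp1 at 0.09, Cyrib at 0.115 and the leucyl-tRNA synthetase gene Lars at 0.13.

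The rest of the pathway was described from lists of related genes, in which limma called no gene for passage, genotype or background. Of 13 other folate enzymes and carriers, 9 lay above 0 for passage with a median of 0.08. Aldh1l2, which oxidises formyl-tetrahydrofolate in mitochondria, differed by 0.75 ± 0.57 (SE) but stood at -1.43 on the late Smurf2-/- C57B6 array against 0.02 on its early partner. Ggh, the lysosomal enzyme that trims folate polyglutamates, differed by -0.62 ± 0.15 (limma adjusted p = 0.156), below 0 in all 4 pairs. Tyms, thymidylate synthase, differed by 0.44 ± 0.19 and the mitochondrial folate carrier gene Slc25a32 by 0.42 ± 0.21. Of 6 further genes of glycine breakdown 4 lay above 0, median 0.075, with Gcat, which splits aminoketobutyrate to glycine, at 0.59 ± 0.09 (SE, limma adjusted p = 0.104, 4 of 4 pairs). The glycine cleavage partners of Gcsh, Gldc and Amt, differed by 0.02 ± 0.06 and -0.05 ± 0.09. The 7 genes of choline, betaine and sarcosine breakdown, the route that supplies Sardh, had a median of 0.05, with Dmgdh and Pipox both at 0.09 ± 0.06. Of 7 genes of the methionine cycle and transsulfuration 5 lay above 0, median 0.015, with Cth, cystathionine gamma-lyase, at 1.37 ± 0.38 (SE, 2.58-fold, limma adjusted p = 0.180, 4 of 4 pairs).

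Transporters, serine users and amino acid response genes had passage differences of either sign. Of 11 serine and glycine transporters 6 lay above 0, median 0.003, with the glutamine and serine carrier gene Slc1a5 at 1.05 ± 0.31 (SE, limma adjusted p = 0.195) and the glycine carrier gene Slc6a9 at 0.63 ± 0.33. Of 9 serine-using enzymes and serine incorporators 7 lay below 0, median -0.40, with Serinc2 at -0.65 ± 0.25, Sptlc1 of sphingolipid synthesis at -0.58 ± 0.21 and Serinc3 at -0.57 ± 0.11 (limma adjusted p = 0.126). Of 19 amino acid response genes 12 lay above 0 for passage, median 0.34. The carrier genes Slc7a11, Slc7a3 and Slc7a5 differed by 1.33 ± 0.20, 1.16 ± 0.63 and 1.14 ± 0.17 (SE), the asparagine synthetase gene Asns by 0.62 ± 0.16 and Atf4 itself by 0.38 ± 0.12. Limma adjusted p was 0.104 for Slc7a11 and Slc7a5 and 0.216 for Atf4. Slc7a3 stood at -1.15 on the late Smurf2-/- C57B6 array, against -0.04 on its early partner. The other 7 genes of the list lay below 0. Among them were Nupr1, with means of -0.58 late and 0.13 early, and Ddit3, with -0.21 late and 0.01 early. The list's late medians were 0.29 and 0.315 in Smurf2-/- and wild-type mixed BL and -0.15 and 0.40 in Smurf2-/- and wild-type C57B6, against early medians of -0.03, -0.07, -0.08 and -0.25 in the same order. The list's median on the late Smurf2-/- C57B6 array was below that on its early partner. The members' median was 0.20 on that late array, against -0.31 on the early one, and single members ran there from -0.11 (Psph) to 0.82 (Shmt1). The part of transporters, serine users and amino acid response genes in the members' differences was not tested. For genotype the amino acid response list had a median of -0.01, with 9 of 19 above 0.

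Purine synthesis, the main user of the folate carbon besides thymidylate, lay higher in Smurf2-/- than in wild-type in 10 of 11 genes, with a median of 0.34, and for passage in 7 of 11, median 0.13. Pfas, Prps1 and Ppat, enzymes of the route from ribose phosphate to inosine monophosphate, differed between the genotypes by 0.57 ± 0.17, 0.55 ± 0.17 and 0.48 ± 0.23 (SE), each in 4 of 4 pairs with a limma adjusted p of 0.651. The list's medians were 0.235 and 0.33 on the late Smurf2-/- arrays of mixed BL and C57B6, 0.15 and -0.30 on the early ones, 0.005 and -0.25 on the late wild-type arrays and 0.10 and -0.36 on the early ones. Proliferation genes lay higher in Smurf2-/- in 21 of 21, median 0.48. At early passage their medians were 0.03 and -0.015 in Smurf2-/- mixed BL and C57B6, against -0.12 and -0.08 in wild-type. Their part in the genotype differences of the 10 genes was not tested.

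**Figure D4:**
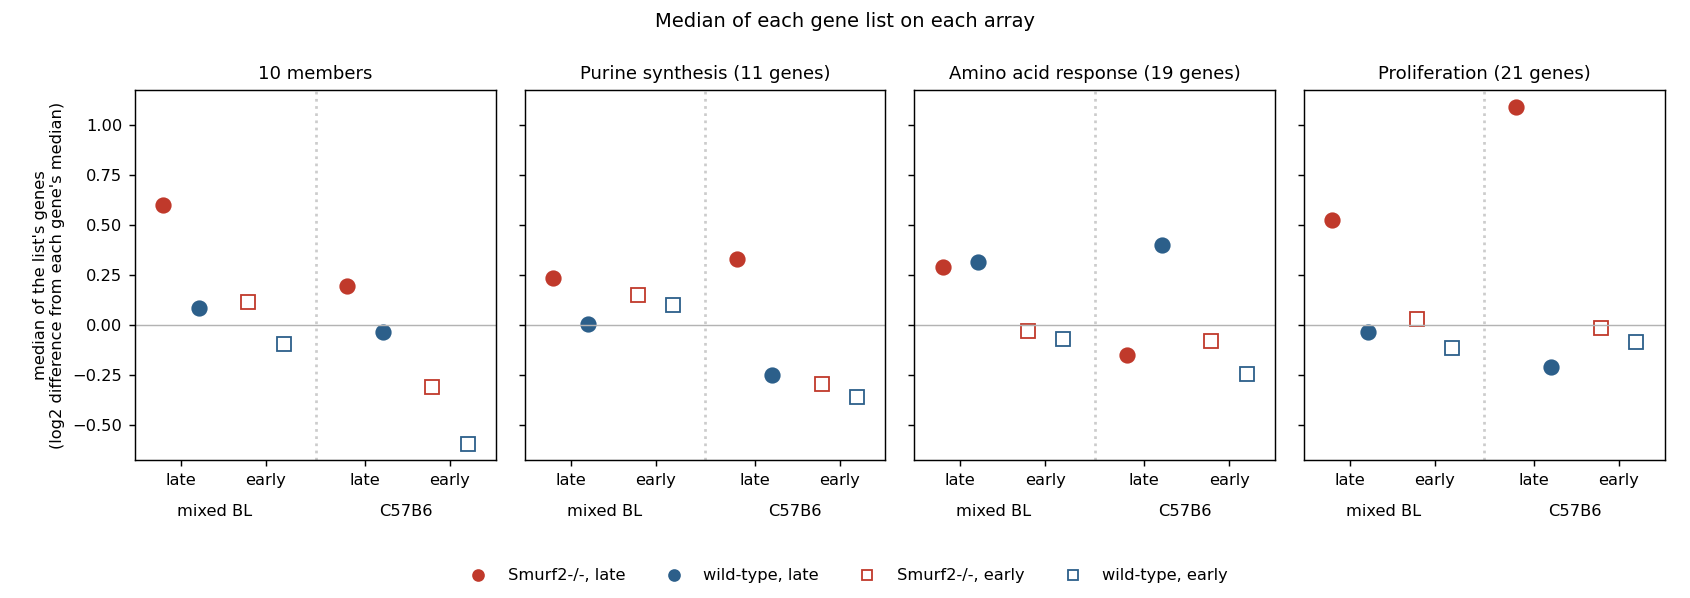
Median of the genes of 4 lists on each array (y axis, log2 difference from each gene's median), with mixed BL left and C57B6 right, late passage filled and early open, Smurf2-/- in red and wild-type in blue. The members' medians run between -0.59 on early wild-type C57B6 and 0.60 on late Smurf2-/- mixed BL, whereas the proliferation median peaks at 1.09 on late Smurf2-/- C57B6.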

How the data were processed

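The deposited values, 24169 transcript clusters on 8 arrays, were read as log2. They were centred per cluster before deposit: no cluster's median exceeded 5e-07. The log base rests on the step size of the values, of which 96.8% of clusters held whole multiples only (tolerance 6e-08). A step size does not by itself tell log2 from another base, and every fold size depends on this reading. How arrays were normalised and probes summarised is not stated in the labels or files; mm8 and mm9 appear, with no role, in the submitters' processing notes. Names came from a gene-level array's annotation, which the identifiers fit, although the series text speaks of an exon array. Of the clusters, 19134 had 1 gene symbol, 1230 several and 3805 none. Symbols were updated through gene identifiers with RefSeq GRCm38.p6 for 19067 clusters, and clusters of a gene were averaged, which gave 17501 genes. Promoter stretches are RefSeq's.

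All genes were tested with limma 3.58.1 (R 4.3.3) without a trend or a filter, since centred values hold no level, in a model of genotype, background and passage class (4 residual degrees of freedom) or with 1 interaction added (3). Benjamini-Hochberg adjustment ran over all 17501 genes, and the number of arrays limits the precision. The model was checked on simulated data. The members and the gene lists were chosen with earlier results of these data known. Genes named outside the members were Smurf2, the sex-linked genes, those of each list with the largest passage or genotype difference, up to 3, besides steps of the pathway and the nearest genes by profile. Titles end in a number that stands for early or late passage, so shared numbers pair arrays by passage alone, a term of the model. Alternatives were quantile normalisation, centring on array medians, a variance trend, robust variances, no passage term, single clusters and leaving out each array. The interactions with background were added after seeing the data.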

Additional observations from a re-analysis of the deposited data

Results flagged for a closer look

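Among the 60 groups of 4 arrays formed by the levels of genotype, passage and background for the 10 genes, 4 held an array whose gap to its nearest neighbour exceeded the critical share of the range in Dixon's test; chance gives this in about 1 in 20 groups. Phgdh stood at -0.67 on early C57B6 wild-type, apart from the other 3 wild-type arrays. Shmt2 stood at 0.96 on late mixed BL Smurf2-/-, apart from the other 3 late arrays. Shmt1 and Mthfd1 stood at 0.82 and 0.57 on late C57B6 Smurf2-/-, apart from the other 3 C57B6 arrays.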

How the results depend on the processing

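No tested member was called in any comparison under any alternative run (0 members). The alternatives included quantile normalisation, centring on array medians, robust variances, single clusters and each array left out. Comparisons of genotype covered only the 7 genes not picked on it. The lowest adjusted p for passage over the alternatives was 0.077, for Mthfd2 with a variance trend, and for background 0.0797, for Gcsh without the late Smurf2-/- C57B6 array. With no replicate block (passage class left out of the model, so that arrays are not paired), limma called 0 of the 7 for genotype and 0 of the 10 for background. Leaving out 1 array at a time, 8 to 9 of 10 members stayed above 0 for passage, 8 to 9 of 10 for background and 6 to 7 of 7 for genotype. Only 3 members' differences turned sign under an alternative: Phgdh for genotype ran from -0.0055 to 0.19, Mthfd1 for passage from -0.0491 to 0.33 and Shmt1 for background from -0.0747 to 0.21, with -0.0364 without the late wild-type C57B6 array. The lowest values came with 1 late array left out for Phgdh (wild-type mixed BL), without the late Smurf2-/- C57B6 array for Mthfd1 and the early Smurf2-/- C57B6 array for Shmt1, and the cause was not tested. Embryo sex and genotype cannot be told apart, and signal over background is unknown from centred values, which limits every gene described; for the same reason no filter on dim genes could be applied, and the trend, run as planned, has no level to follow.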

Other observations

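A transcript cluster shared by Phgdh and Gm6756, left out of the Phgdh value, stood at 0.39, 0.25, 0.26 and 0.04 on the late arrays (Smurf2-/- and wild-type mixed BL, then Smurf2-/- and wild-type C57B6), against -0.04, -0.14, -0.50 and -0.59 on the early arrays in the same order. Every late array lay above every early one there, as in 5.44% of all genes with a cluster of their own.

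Slc38a4, an amino acid carrier gene, had a background difference of 1.51 ± 0.47 (SE, 2.84-fold, limma adjusted p = 0.264), higher in mixed BL than in C57B6 in 4 of 4 pairs, and its genotype difference was 0.84 ± 0.47. The pairs were uneven: the early Smurf2-/- arrays stood at 0.05 in mixed BL and -0.02 in C57B6. The wild-type C57B6 arrays were the lowest, at -2.46 late and -1.49 early. Slc25a32, the mitochondrial folate carrier gene, was higher in mixed BL by 0.83 ± 0.21 (limma adjusted p = 0.204, 4 of 4 pairs), and Amt of the glycine cleavage system differed by -0.38 ± 0.09 (limma adjusted p = 0.197), lower in mixed BL in 4 of 4 pairs. None of these passed the test.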
